A study of Bubalus bubalis with 12 samples.

Results

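Acute phase proteins are plasma and secreted proteins whose amounts change when tissue is inflamed or injured. Most of them come from hepatocytes, where interleukin 6, acting through gp130 and STAT3, and interleukin 1, acting through NF-kB, switch on their genes. Several are also made locally by epithelia that face microbes, and in ruminants serum amyloid A and haptoglobin are used as blood markers of inflammation. The rumen wall carries a keratinised squamous epithelium in contact with the fermenting microbes, over a connective tissue and smooth muscle layer.

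The 8 genes described here are the rows whose gene name is LOC112585166, HP, LBP, CP, LCN2, PTX3, ITIH4 or ORM1. All 8 were found among the 34037 genes of the deposited table. They were chosen by function, with the diet differences of these animals already known, so their diet differences are given as descriptions without a test. The gene that the study lists as serum amyloid A protein-like carries no name in the table beyond LOC112585166. No sequence or coordinate is printed, since the reference table used here belongs to another genome build (NDDB_SH_1) than the deposited values (UOA_WB_1).

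The animals were 12 adult dairy buffaloes (Bubalus bubalis) of the Italian Mediterranean type, sampled at slaughter. The control group of 6 animals received a total mixed ration (TMR), and the treated group of 6 received a TMR in which fresh green feed, ryegrass, made up about 30% of the diet. Both diets were balanced for nitrogen and energy. Besides ryegrass, the rations differed in the forage to concentrate ratio, alfalfa hay, corn silage, soybean meal, added vitamins and fat content, among others. Each animal gave 1 library of stranded total RNA from a biopsy of the ruminal wall. The values are FPKM, fragments scaled by gene length and by the fragments counted in that animal, which came to between 10531541 and 12948372 per animal. For each gene, every FPKM is a whole number times what 1 fragment adds, so the fragments behind each value are given too, and 3 fragments or fewer are treated as the floor.

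The 8 genes ranged from undetected to moderately expressed in the rumen wall, and the 6 that were measured in several animals differed widely between animals. On the FPKM scale, which is per length, the means over the 12 animals were 7.18 ± 4.25 (SD, n = 12) for LBP, 4.53 ± 7.33 for LOC112585166, 1.44 ± 0.868 for LCN2, 1.42 ± 1.41 for CP, 0.754 ± 0.280 for ITIH4 and 0.211 ± 0.188 for PTX3. ORM1 was above 0 in 1 animal and HP in none. The mean of LBP lay at the 70.6th percentile of the 22972 genes above 0 in at least 1 animal, that of LOC112585166 at the 63.8th, those of LCN2 and CP at the 50.3rd and 50.2nd, that of ITIH4 at the 43.7th and that of PTX3 at the 31.8th. In this order, ITIH4 and PTX3 were the only neighbours of these 6 whose means differed by more than the SDs of both genes. ITIH4 was above PTX3 in 12 of 12 animals and LBP was above LOC112585166 in 9, whereas LCN2 was above CP in 8, CP above ITIH4 in 7 and LOC112585166 above LCN2 in 4. The within-group SD of log2(FPKM + 0.01) was 3.66 for LOC112585166, 2.35 for PTX3, 1.15 for CP, 1.01 for LBP, 0.97 for LCN2 and 0.66 for ITIH4, beside 0.36 for the median gene among the 12653 that entered the test. At few fragments part of such a spread is counting error. The plot of the members by animal shows these values.

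**Figure D1:**
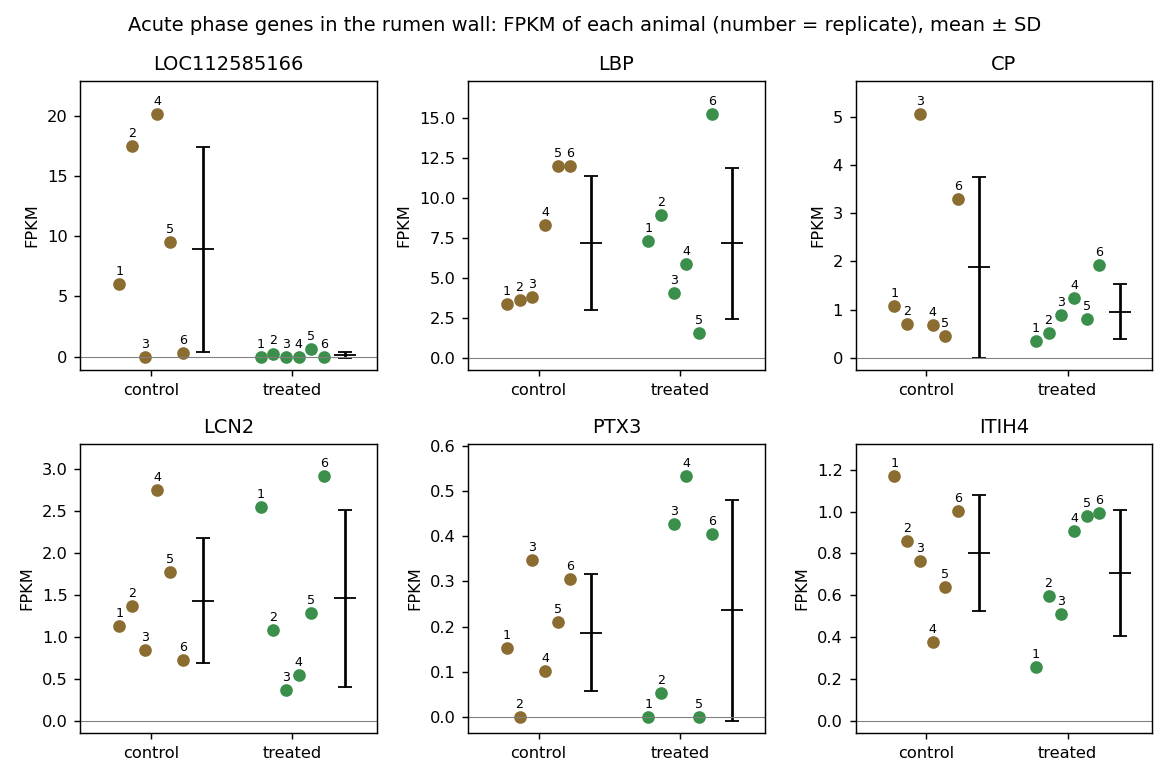
FPKM of 6 acute phase genes in each of the 6 control (brown) and 6 treated (green) animals, numbered by replicate, with the group mean ± SD in black; each panel has its own linear axis. LOC112585166 was at 6.05 to 20.2 FPKM in control replicates 1, 2, 4 and 5 and at 0.654 or less in the other 8 animals. The values of the groups overlapped for all 6 genes.

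LOC112585166 encodes a protein like serum amyloid A, a small apolipoprotein that binds to high density lipoprotein and to bacteria and whose family is among those that rise furthest in blood during an acute phase response. Its transcript was found in 4 control animals and was at or near the floor everywhere else. Control replicates 1, 2, 4 and 5 had 49, 134, 165 and 75 fragments, which correspond to 6.05, 17.4, 20.2 and 9.48 FPKM. Control replicate 3 had 0 fragments and control replicate 6 had 2 fragments (0.294 FPKM). Among the treated animals, replicate 5 had 5 fragments (0.654 FPKM), replicate 2 had 2 fragments (0.257 FPKM) and replicates 1, 3, 4 and 6 had 0. The groups overlapped, because 2 of the 6 controls were as low as the treated animals.

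The 4 high controls differed among themselves beyond counting error. The exact 95% Poisson interval was 4.47 to 7.99 FPKM for control replicate 1 and 17.2 to 23.5 FPKM for control replicate 4. At the low end, the interval of control replicate 6 (0.0357 to 1.06 FPKM) contained the value of treated replicate 5, and in the 5 animals with 0 fragments, the floor of 3 fragments came to 0.359 to 0.389 FPKM. Intervals and floors cover counting error only, since the reads carry no molecular identifiers.

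The group means were 8.90 ± 8.50 FPKM (SD, n = 6) in control and 0.152 ± 0.267 FPKM in treated animals, and the summed fragments were 425 and 7. On the log2(FPKM + 0.01) scale the difference, treated minus control, was -5.84 (log2 fold change, standard error 1.82). Its size depends on the pseudocount added to the zeros, with -4.14 at 0.1 FPKM and -2.35 at 1 FPKM. Leaving out single animals gave -7.36 (without control replicate 3) to -5.17 (without control replicate 4). SAAL1, a gene of similar symbol but another row of the table, was measured in all 12 animals at 7.80 ± 0.949 FPKM in control and 7.48 ± 1.04 FPKM in treated animals. Its log2 fold change was -0.07 (standard error 0.13). The table has no row named SAA1, SAA2, SAA3 or SAA4, and fragments that map equally well to a close copy fall under the mapping quality limit, so the level of LOC112585166 may miss such fragments.

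In the limma fit over 12653 genes, 0 genes had an adjusted p-value below 0.05 (Benjamini-Hochberg), with a smallest adjusted value of 0.9997, and 157 (1.24%) had a nominal p-value below 0.05, of which 57 (0.45%) were lower in treated animals. With voom on the fragments, the counts were 0 and 142. Only LOC112585166, LBP and CP reached the level required for the fit, LOC112585166 in control animals alone. Of these 3, 1, LOC112585166, was among the 57. It was not among the 142 genes of voom, in which its log2 fold change was -4.50 (standard error 2.74). For 7 of the 12653 genes (0.0553%) the groups did not overlap, and none of these 7 was an acute phase member. Since the members were chosen by function with this contrast already known, nothing is read from these counts. For LCN2, PTX3 and ITIH4 the standard errors below come from the fit without the filter on low values.

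LBP encodes lipopolysaccharide binding protein, which passes bacterial lipopolysaccharide to CD14 and the TLR4 receptor complex. It was the member with the highest mean level and was present in every animal, with 27 to 281 fragments. In control animals the lowest, median and highest values were 3.36, 6.06 and 12.02 FPKM, and in treated animals they were 1.58, 6.59 and 15.3 FPKM. The control range lay inside the treated range, and treated replicates 5 and 6 held the lowest and the highest value of all 12 animals, a 9.69-fold span. The group means were 7.19 ± 4.17 FPKM in control and 7.18 ± 4.72 FPKM in treated animals, with a log2 fold change of -0.09 and a standard error of 0.50. Leaving out treated replicate 5 turned this to 0.28, and leaving out treated replicate 6 gave -0.37.

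CP encodes ceruloplasmin, the copper-carrying ferroxidase of plasma that loads iron on to transferrin. Its reference entry matches by gene identifier under the name LOC102404988. In control animals the lowest, median and highest values were 0.456, 0.881 and 5.06 FPKM, and in treated animals 0.355, 0.852 and 1.93 FPKM. The medians were close, and the higher control mean (1.88 ± 1.88 FPKM against 0.959 ± 0.567 FPKM) came with control replicates 3 and 6, at 5.06 and 3.29 FPKM. Control replicate 3 held 293 of the 924 CP fragments (31.7%). The log2 fold change was -0.59 (standard error 0.59) over all animals and -0.19 without control replicate 3.

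LCN2 encodes lipocalin 2, which binds bacterial siderophores and so withholds iron. It gave 4 to 34 fragments per animal. The lowest, median and highest values were 0.723, 1.25 and 2.74 FPKM in control and 0.362, 1.18 and 2.91 FPKM in treated animals. Control replicate 4 and treated replicates 1 and 6 were the high animals, and the control range lay inside the treated range. The group means were 1.43 ± 0.747 FPKM and 1.45 ± 1.05 FPKM, with a log2 fold change of -0.19 and a standard error of 0.51. It turned to 0.13 without treated replicate 3, to 0.02 without treated replicate 4 and to 0.03 without control replicate 4. With the smooth muscle covariate, defined below, it was -0.98 (standard error 0.54).

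PTX3 encodes pentraxin 3, a long pentraxin that binds microbes and complement C1q and is made in tissue rather than in the liver. It never exceeded 10 fragments in an animal, and 3 control and 3 treated animals were above 3 fragments. The highest values were 0.532 FPKM in treated replicate 4, 0.428 FPKM in treated replicate 3 and 0.404 FPKM in treated replicate 6, whereas treated replicates 1 and 5 and control replicate 2 were at 0. The group means were 0.186 ± 0.129 FPKM in control and 0.236 ± 0.244 FPKM in treated animals. The log2 fold change, in which the zeros weigh more, had the other sign (-0.48, standard error 1.23). With so few fragments the difference between the groups was imprecise for PTX3, and its sign depended on the scale.

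ITIH4 encodes a heavy chain of the inter-alpha-trypsin inhibitor family, a plasma protein that is cleaved by kallikrein. It was the most even of the members, with 9 to 43 fragments per animal. The lowest, median and highest values were 0.376, 0.812 and 1.17 FPKM in control and 0.257, 0.750 and 0.992 FPKM in treated animals. The group means were 0.802 ± 0.278 FPKM and 0.706 ± 0.299 FPKM. The log2 fold change was -0.23 (standard error 0.40) over all animals and 0.02 without treated replicate 1, the lowest animal.

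HP, which encodes the haemoglobin scavenger haptoglobin, was at 0 in all 12 animals. That is 0 of 145596348 counted fragments, of which the floor of 3 fragments would be a share of 2.06e-06%. ORM1, which encodes the plasma carrier alpha-1-acid glycoprotein, was at 0.259 FPKM in control replicate 3 and at 0 in the other 11 animals. With 1 animal above 0, the number of ORM1 fragments could not be worked out. Both of these genes are among the main plasma acute phase genes of ruminant liver.

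The cell types behind these levels were checked with marker lists. Hepatocyte markers were nearly absent, with a summed level of 0.546 to 2.54 FPKM per control animal and 0.720 to 2.42 FPKM per treated animal over 11 genes in the table, and APOA2, APOB, FGA and FGG at 0 in all animals. Squamous epithelium markers summed to 3072 to 5996 FPKM over the 12 animals, which matches the label of the tissue. Fibroblast markers ranged from 46.4 to 282 FPKM in control and from 19.8 to 184 FPKM in treated animals, smooth muscle markers from 28.9 to 51.2 FPKM and from 15.5 to 40.7 FPKM, and endothelium markers from 11.5 to 37.9 FPKM and from 7.33 to 40.2 FPKM. Macrophage markers ranged from 23.7 to 44.2 FPKM in control and from 18.4 to 39.2 FPKM in treated animals, with MARCO at 0. In the mesothelium and adipose list, which ranged from 41.0 to 248 FPKM and from 48.5 to 113 FPKM, MSLN, WT1, LRRN4, ADIPOQ and LEP were at 0. The neutrophil list, at 4262 to 12253 FPKM in control and 2872 to 11990 FPKM in treated animals, was made up almost wholly of S100A8 and S100A9, which squamous epithelium also expresses, while MPO and MMP8 were at 0 in all animals. In bulk tissue, fewer cells of a type and less RNA per cell cannot be told apart.

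**Figure D2:**
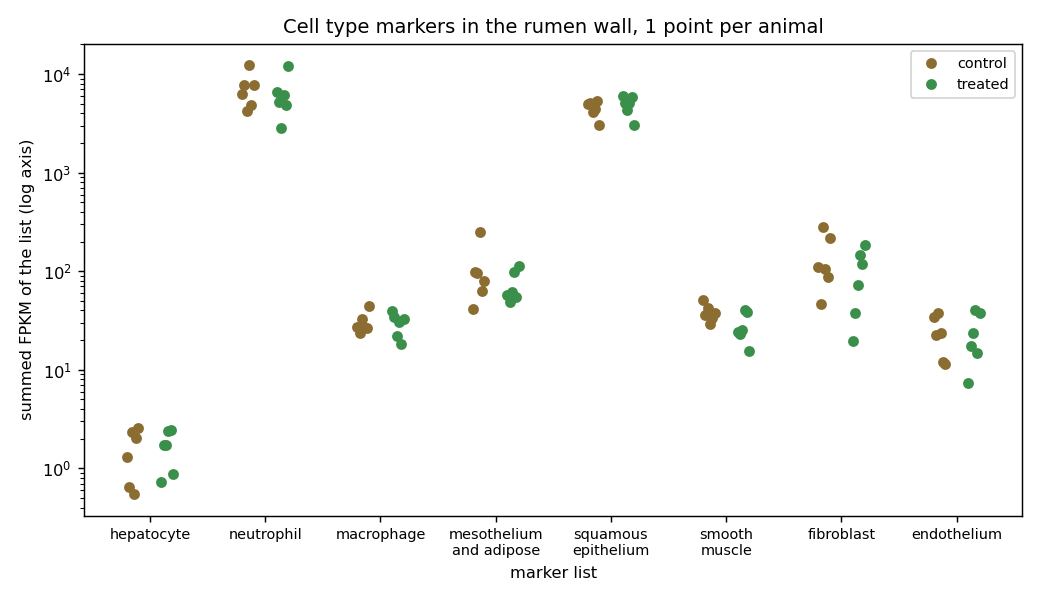
Summed FPKM of 8 marker lists in each of the 6 control (brown) and 6 treated (green) animals, on a log axis. The hepatocyte list stayed at or below 2.54 FPKM in every animal, and the squamous epithelium list at or above 3072 FPKM.

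CP was higher in animals with more fibroblast marker RNA. A score for each of 7 marker lists was the mean log2 level of its genes with a mean of at least 1 FPKM, relative to the 12 animals, and log2(FPKM + 0.01) of LBP, CP, LCN2, PTX3 and ITIH4 was set against it, which made 35 relations. Only that of CP with the fibroblast score passed for both coefficients after Benjamini-Hochberg adjustment over the 35, with Pearson r = 0.85 (permutation p = 0.000600, adjusted 0.0210) and Spearman rho = 0.90 (permutation p = 0.000120, adjusted 0.00420; n = 12, two-sided). Without the 2 animals farthest from the median score, r was 0.84. Within the diets, r was 0.88 in the 6 control and 0.94 in the 6 treated animals. Control replicates 3 and 6, the animals with the most CP, also had the highest fibroblast score, and treated replicate 1 had the lowest of both.

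CP ran against the squamous epithelium score, with rho = -0.83 (permutation p = 0.00145, adjusted 0.0254), but the Pearson coefficient of -0.72 did not pass (permutation p = 0.0110, adjusted 0.0829). With the macrophage score, CP had r = 0.75 (permutation p = 0.00481, adjusted 0.0674) and rho = 0.74 (permutation p = 0.00768, adjusted 0.0896), which did not pass either. With the fibroblast score as a covariate, which was chosen after this relation was seen, the log2 fold change of CP between the diets moved from -0.59 to 0.05 with a standard error of 0.38. With a smooth muscle covariate it was 0.03 with a standard error of 0.69. This covariate was not the score above: it averaged the log2 levels of all 10 genes of that list, each scaled by its SD.

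**Figure D3:**
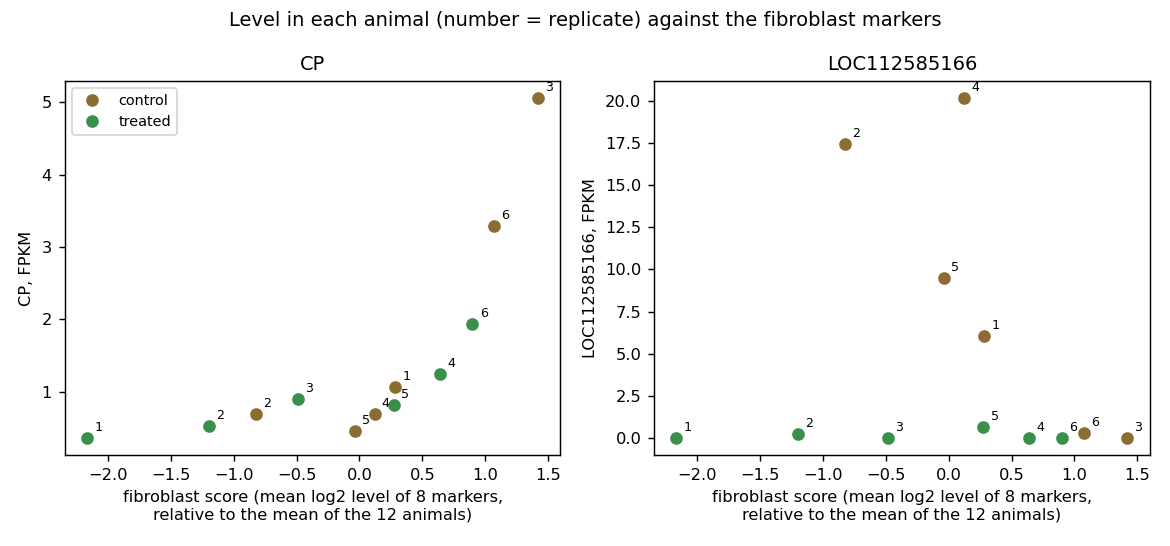
FPKM of CP (left) and of LOC112585166 (right) in each animal, numbered by replicate, against the fibroblast score, the mean log2 level of 8 fibroblast markers relative to the 12 animals. CP was highest in control replicates 3 and 6 at the right end, whereas LOC112585166 was at 0 and 0.294 FPKM in these same 2 animals.

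None of the other 4 members had a relation that passed for both coefficients. ITIH4 had r = 0.74 with the smooth muscle score (permutation p = 0.00578, adjusted 0.0674) and LCN2 had r = 0.68 with the neutrophil score (permutation p = 0.0128, adjusted 0.0829). The latter score rests on 3 genes, S100A8, S100A9 and CXCR2. Because LOC112585166 falls into 4 high animals and 8 at or near the floor, no coefficient with a marker score is given for it. Its 4 high animals spanned fibroblast scores from -0.82 to 0.28, inside the range of the treated animals from -2.16 to 0.90. With the fibroblast score as a covariate, its log2 fold change was -6.89 (standard error 1.82). With the smooth muscle covariate of all 10 markers it was -6.76 (standard error 2.29). That marker list had median sums of 36.7 FPKM in control and 24.5 FPKM in treated animals.

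The genes whose levels were most like those of a member, by Spearman rho over the 12 animals among 11499 or 11500 tested genes with a mean of at least 1 FPKM, are given as a description. For CP they were ASPN (asporin, of the extracellular matrix; rho = 0.96) and CALD1 (caldesmon, an actin-binding protein; rho = 0.94). ASPN was at 8.70 ± 7.36 FPKM in control and 4.92 ± 3.07 FPKM in treated animals. For LBP the most alike was TMPRSS11D, a serine protease of squamous and airway epithelium (rho = 0.96). TMPRSS11D was at 111 ± 49.9 FPKM and 119 ± 60.1 FPKM in control and treated animals, so its group means were close, as those of LBP were. Such a likeness of group means follows in part from the choice by rho. For ITIH4 they were LOC102403870 (rho = 0.92) and KLHL9 (rho = 0.89), for LCN2 LOC102408590 (rho = 0.87) and LOC102410782 (rho = 0.85), and for PTX3 LOC102405898 (rho = 0.85) and BLOC1S4 (rho = 0.85).

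For LOC112585166, where 5 animals tied at 0, the most alike were LOC102409156 (rho = 0.92), LOC102389842 (rho = 0.86) and LOC112581571 (rho = 0.84), which the table does not describe further. LOC102409156 was at 2.59 ± 0.892 FPKM in control and 1.42 ± 0.379 FPKM in treated animals, LOC102389842 at 47.2 ± 20.0 FPKM and 32.5 ± 13.2 FPKM, and LOC112581571 at 8.50 ± 2.92 FPKM and 5.13 ± 2.53 FPKM. All 3 were detected in every animal, unlike LOC112585166. They were picked for likeness to a gene that was high only in control animals. Their lower treated means therefore follow from that choice and are no separate result.

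Among the members themselves, CP went with ITIH4 (rho = 0.66) and PTX3 (rho = 0.65) and ran against LCN2 (rho = -0.45), and LBP went with none of them beyond a rho of 0.31. The most negative pairs were LOC112585166 with PTX3 (rho = -0.53) and LCN2 with PTX3 (rho = -0.48). LOC112585166 was tied at 0 in 5 animals, and PTX3 rests on few fragments. The members did not share 1 high animal. The highest value was in treated replicate 6 for LBP and LCN2, in control replicate 4 for LOC112585166, in control replicate 3 for CP, in treated replicate 4 for PTX3 and in control replicate 1 for ITIH4. These coefficients are over 12 animals whose libraries share their depth and tissue make-up between the genes, and none was tested.

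The rest of the acute phase system was followed in 4 lists of genes that are not members. Of the 42 list genes in the fit, 0 had an adjusted and 0 a nominal p-value below 0.05 (limma), beside 0% and 1.24% of all genes tested, and the smallest nominal p-value was 0.0577. Positive log2 fold changes were found for 13 and negative ones for 29, with a median of -0.10, beside 0.01 over all genes. The median absolute log2 fold change over all genes was 0.09, and the direction of the lists was not tested. With voom, or with a pseudocount of 0.1 or 1, the nominal count was also 0. It stayed at 0 in 4 of 9 other settings and in 3 of 12 omissions of single animals, and was 1 or 2 in the rest.

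Of 26 other acute phase proteins, 19 were in the table, 12 were above 0 in some animal and 3 were in the fit. Of the plasma proteins that are mainly made in the liver, APCS, HPX, HAMP, AMBP, MBL2, FGA and FGG were at 0 in all animals, whereas AHSG and FETUB, both fetuins, were above 3 fragments in 7 and 8 animals. AHSG was at 0.432 ± 0.538 FPKM in control and 1.002 ± 0.864 FPKM in treated animals and FETUB at 0.364 ± 0.356 FPKM and 0.641 ± 0.508 FPKM, both below the filter. CRP, encoding C-reactive protein, was above 0 in only 1 treated animal, at 0.0221 FPKM. The best expressed was RBP4, encoding the retinol carrier of plasma, at 110 ± 52.8 FPKM in control and 76.8 ± 34.9 FPKM in treated animals (log2 fold change -0.57, standard error 0.38). SERPING1, encoding the C1 inhibitor, was at 1.91 ± 0.540 FPKM and 1.31 ± 0.925 FPKM (-0.98, standard error 0.56). Neither passed the test.

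Of 27 genes for the inducing cytokines, their receptors and signalling, 21 were in the fit. The receptor and signalling genes were well expressed and the cytokines scarce. STAT3, the transcription factor that interleukin 6 activates, was at 89.7 FPKM in control and 82.6 FPKM in treated animals, and CEBPD, a C/EBP factor of acute phase promoters, at 174 FPKM and 157 FPKM. IL6 itself had means of 0.0554 and 0.0192 FPKM and at most 2 fragments in an animal. IL6ST, encoding the gp130 receptor chain, was at 66.6 ± 12.4 FPKM in control and 54.6 ± 8.36 FPKM in treated animals, with a log2 fold change of -0.29, a standard error of 0.14 and a nominal p-value of 0.0577 (limma). LIFR, encoding the receptor of leukemia inhibitory factor, was at 6.32 ± 2.88 FPKM and 3.99 ± 1.58 FPKM (-0.64, standard error 0.34), and IL1A, encoding interleukin 1 alpha, at 1.501 ± 0.752 FPKM and 2.07 ± 1.48 FPKM (0.33, standard error 0.46). The values of the 2 groups overlapped for all 3.

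**Figure D4:**
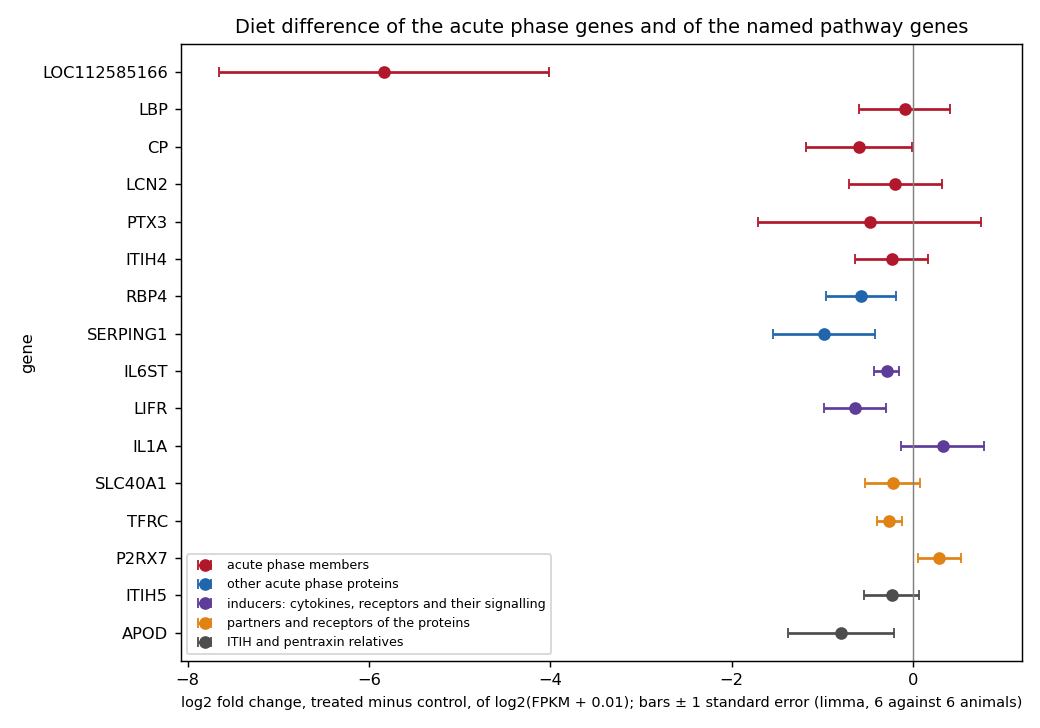
Log2 fold change (treated minus control, of log2(FPKM + 0.01)) with 1 standard error (limma, 6 against 6 animals) for 6 acute phase members (red) and 10 named genes of the 4 lists (other colours). LOC112585166 lies at -5.84, and the other 15 genes lie between -0.98 (SERPING1) and 0.33 (IL1A). List genes with a mean below 1 FPKM are not drawn. Among those in the fit, LRP2 was at -2.03 (standard error 1.06) and NPTXR at 0.81 (standard error 0.57).

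Of 25 genes for binding partners and receptors, 23 were in the table and 14 in the fit. The lipopolysaccharide receptor to which LBP delivers was present, with CD14 at 20.7 FPKM in control and 21.6 FPKM in treated animals, TLR4 at 29.6 and 28.1 FPKM and LY96, encoding MD-2, at 45.2 and 45.5 FPKM. Their log2 fold changes were -0.03 (standard error 0.26), -0.11 (standard error 0.25) and -0.01 (standard error 0.21). On the iron side, TFRC, the transferrin receptor, was at 92.3 ± 12.9 FPKM and 77.7 ± 14.8 FPKM (-0.26, standard error 0.14), and SLC40A1, the iron exporter ferroportin that works with ferroxidases such as ceruloplasmin, at 45.3 ± 17.4 FPKM and 36.5 ± 10.4 FPKM (-0.22, standard error 0.30). P2RX7, an ATP-gated channel, was at 1.89 ± 0.522 FPKM and 2.31 ± 0.637 FPKM (0.29, standard error 0.23). None of these 6 genes passed the test.

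Of 15 relatives of ITIH4, of the pentraxins and of the lipocalins, 7 were above 0 and 4 were in the fit. ITIH1, ITIH3 and ITIH6 were at 0 in all animals. ITIH5, which unlike the liver-made heavy chains is widely expressed, was at 2.23 ± 0.665 FPKM in control and 2.00 ± 0.876 FPKM in treated animals (-0.23, standard error 0.31). The lipocalin APOD was at 12.8 ± 8.03 FPKM and 8.80 ± 7.17 FPKM (-0.79, standard error 0.59). Neither passed the test.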

How the data were processed

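Stranded total RNA libraries of 12 rumen walls (6 control, 6 treated) were analysed. Per the labels and the study's methods, the authors trimmed with Trimmomatic 0.39, mapped to UOA_WB_1 with STAR 2.5.2b and summarised read pairs by gene in featureCounts 2.0.0, strand-specifically and at a mapping quality of at least 30, and then deposited FPKM for each gene and animal; the origin of the gene lengths is not given in the sources used here. Of the 16 columns, 12 matched the sample labels and 4 were not used. Multi-mapping fragments are therefore missing from genes with close copies.

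The fragments behind each value were worked out from the steps between the deposited FPKM of a gene. limma 3.58.1 (R 4.3.3; lmFit, eBayes with trend) was run on log2(FPKM + 0.01) over the 12653 genes that reached the study's threshold of normalised fragments in at least 1 animal, with Benjamini-Hochberg adjustment, and was tested on simulated data. Correlations used 100000 permutations (numpy 2.4.6, scipy 1.17.1).

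The members and lists were chosen with earlier results of these data known. Of the 4 lists, genes with a nominal p-value below 0.05 were to be named, otherwise the 3 with the largest absolute log2 fold change at a mean of at least 1 FPKM. For likeness, 3 genes were named for LOC112585166 and 2 for each other member above 3 fragments in at least 6 animals. The other genes named (STAT3, CEBPD, IL6, CD14, TLR4, LY96, AHSG, FETUB and those at or near 0) were chosen after their values were seen. Alternatives were pseudocounts, filters, scaling, covariates, a replicate block, voom, other summaries and each animal left out. Of the genes that these rules name, 2 are not reported here. No motif search was made, as no promoter sequence was used here.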

Additional observations from a re-analysis of the deposited data

Results flagged for a closer look

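Of 37 groups of 6 animals compared (the acute phase members, the list genes named in the text and SAAL1), 4 held 1 animal far from the others, by a gap to its neighbour that exceeded Dixon's 95% limit for the group's range. Chance gives about 1 in 20 groups. ORM1 was at 0.259 FPKM in control replicate 3 and at 0 in the other 5 controls, where any single value above 0 exceeds the limit by construction. IL6ST was at 90.2 FPKM in control replicate 6, beside 57.3 to 68.7 FPKM in the other controls. SAAL1 was at 9.61 FPKM in that same animal, beside 6.85 to 7.80 FPKM. SLC40A1 was at 56.4 FPKM in treated replicate 3, beside 25.7 to 35.8 FPKM in the other treated animals.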

How the results depend on the processing

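No alternative gave a gene with an adjusted p-value below 0.05 among all genes tested. The nominal count of 157 rose to 562 of 22972 genes without a filter, 346 of 17177 at a mean of at least 0.1 FPKM, 321 with the replicate block and 417 with the fibroblast score, the last chosen after seeing the data, and ranged from 142 (without treated replicate 3) to 329 (without treated replicate 6). Of the pathway list genes, 0 were nominal in the main fit. Without a filter the count was 2 (TTR and LRP2), and at a mean of at least 0.1 FPKM it was 1 (TTR). It was 1 each with median ratio scaling (IL6ST), the replicate block (TFRC) and the fibroblast score (IL6ST). Without single animals it was 0 in 3 of 12 omissions and 1 or 2 in the others. All genes called in these fits were lower in treated animals, and the causes were not tested. LOC112585166 was lower in treated animals under all 11 other settings and all 12 omissions, from -9.57 as a difference of medians to -2.35 at a pseudocount of 1. Its nominal call was kept in 8 of 9 other fits and all 12 omissions and lost under voom (-4.50, standard error 2.74). The gene was chosen with this contrast known and entered the fit through control animals alone, so these calls are no support for a diet difference. Omissions gave -0.37 to 0.28 for LBP, -0.88 to -0.19 for CP, -0.46 to 0.13 for LCN2, -1.21 to 0.17 for PTX3 and -0.43 to 0.02 for ITIH4; other settings also turned the sign of these 5. With the fibroblast score or the smooth muscle covariate, CP (0.05 and 0.03), PTX3 (0.57 and 0.43) and ITIH4 (0.06 and 0.31) became positive. LBP moved to -0.09 and -0.83 and LCN2 to -0.38 and -0.98. Same-numbered animals correlated at -0.01 to 0.41 in their deviations, with a mean of 0.21, beside -0.04 over the 30 other pairs. The correlation was above 0.1 in 4 of 6 pairs, and 7 of 12 animals correlated best with their own number. These replicate numbers follow the sample descriptions, and the animal numbers in the sample titles differ within every same-numbered pair. The study describes random assignment to the groups and no pairing, so the replicate numbers mark no known pairs. The main fit therefore has no block, and the block is given only as an alternative setting. The block left the log2 fold change of LOC112585166 at -5.84 and its standard error at 1.23, beside 1.82 without it. PTX3 rests on at most 10 fragments in an animal.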

Other observations

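TTR, encoding transthyretin, a plasma protein that falls in acute phase responses, was highest in control replicates 6 and 3, at 1.82 and 1.36 FPKM, and at 0.468 FPKM or less in the other 10 animals. These 2 animals also had the most CP (3.29 and 5.06 FPKM) and the highest fibroblast scores (1.07 and 1.42), while LOC112585166 was at 0.294 and 0 FPKM in them. TTR was too low for the fit and was singled out after its values were seen, and these differences between animals of 1 group were not tested.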
